A study of Mus musculus with 16 samples.

Results

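The secreted signals of the WNT, BMP, GDF and FGF families were described here as they stood in the brains of aged mice given adropin or saline. The members were the protein-coding genes whose symbols are Wnt, Bmp, Gdf or Fgf followed by a number, without Bmp1 and Bmp2k, and 60 of the 40481 genes listed met this rule. They comprised 19 WNT, 10 BMP, 9 GDF and 22 FGF genes. Fgf11, Fgf12, Fgf13 and Fgf14 encode proteins that stay inside the cell and bind sodium channels, and these 4 were kept apart from the 56 secreted ligands.

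RNA was sequenced from the brains of male C57BL/6J mice (C57BL in the labels) bought at 18 months of age. The adropin group (8 mice) received adropin(34-76), the secreted portion of a peptide encoded by Enho, at 90 nmol/kg/d as a daily ip injection in saline with BSA. The saline group (8 mice) received the diluent alone, and both groups were weight-matched and fasted for 6 h before tissue collection. Injections were given for 2 weeks before behavioural testing and continued during it. All mice had gone through this testing, the 16 sequenced mice were chosen from larger groups, and the brain region sampled is not given. Each mouse is named as its label names it, for example mouse 8_3, and the labels do not explain the numbers.

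WNT proteins are lipid-modified ligands that act over short distances on Frizzled and LRP receptors, and they guide neural tube patterning, brain vessel growth and synapse formation. BMPs and GDFs belong to the TGF-beta superfamily and signal through serine/threonine kinase receptors to SMAD proteins, with secreted antagonists such as Noggin and the Chordins holding them back. Secreted FGFs bind receptor tyrosine kinases with heparan sulfate or Klotho co-receptors and act on neuron survival, glia and, for the endocrine members, metabolism. Many members pattern the embryo and stay on at low levels in particular regions or cell types of the adult brain.

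Total gene counts ran from 35026503 to 70314050 per mouse, with a median of 41190462. Neuronal, astrocytic, oligodendrocytic and microglial markers were present in every mouse. The summed level of 6 neuronal markers, for instance, lay between 6617 and 8085 TMM-normalised CPM (counts scaled to library size). Cerebellar markers were low in 15 mice, with sums of at most 23.6 CPM, against 328 in saline mouse 8_3. That mouse also had the highest choroid plexus marker sum, 2503 CPM, followed by 333 in saline mouse 5_4 and 12.4 to 78.0 in the remaining mice. No listed marker was at 0 in every mouse. In whole tissue, fewer cells of a type and less RNA per cell cannot be told apart.

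At least 10 counts in 7 or more mice were found for 43 members, namely 16 WNT, 7 BMP, 5 GDF and 11 secreted FGF genes and the 4 intracellular FGFs. The other 17 members were too low for a group test. Of these, 10 had fewer than 10 counts in every mouse: Wnt8a, Bmp10, Bmp8a, Gdf2, Gdf3, Fgf4, Fgf6, Fgf8, Fgf15 and Fgf20. Fgf6, a factor of developing muscle, had 0 counts in all 16 mice, which allows a level of at most 0.0427 to 0.0856 CPM depending on the mouse (3 counts of its total, counting error only). The remaining untested members were Wnt3a, Wnt8b, Bmp15, Gdf6, Gdf15, Fgf16 and Fgf21, which reached 10 counts in 1 to 6 mice.

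Some of these scarce ligands came from few mice. Wnt8b, expressed in the embryonic forebrain midline and diencephalon, had 73 counts in adropin mouse 7_4 and at most 4 in any other mouse. Gdf15, a stress-induced hormone that acts on the hindbrain receptor Gfral, had 89 counts over the 8 adropin mice and 31 over the 8 saline mice, of which 34 came from adropin mouse 2_4. Fgf21, an endocrine FGF of liver, had 59 counts over the adropin mice and 40 over the saline mice, with a highest value of 20 in mouse 7_4. These genes were left out of the group test. When the count filter was dropped as an alternative, Wnt8b, Gdf15 and Bmp10 (3 counts in all) had an unadjusted p below 0.05 in edgeR, which is 3 of the 16 such members that entered that fit, where 6.30% of 30210 genes passed. None of them had an adjusted p below 0.05 (lowest 0.663).

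Levels of different genes were compared per kilobase of exon. The secreted ligands tested spanned a 231-fold range on this scale, from Fgf2 at 0.0407 to Wnt7b at 9.42 CPM per kb. Within the WNT family, Wnt7b, Wnt4 and Wnt10a made up 57.9% of the summed level per kb. Bmp7, Bmp6 and Bmp4 made up 74.5% of the BMP level, and Gdf11, Gdf10 and Gdf9 made up 92.7% of the GDF level. Among the secreted FGFs, Fgf1, Fgf9 and Fgf10 held 75.4%, and Fgf1 alone held 43.3%. The plot of levels per kilobase draws each gene with its lowest and highest mouse.

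**Figure D1:**
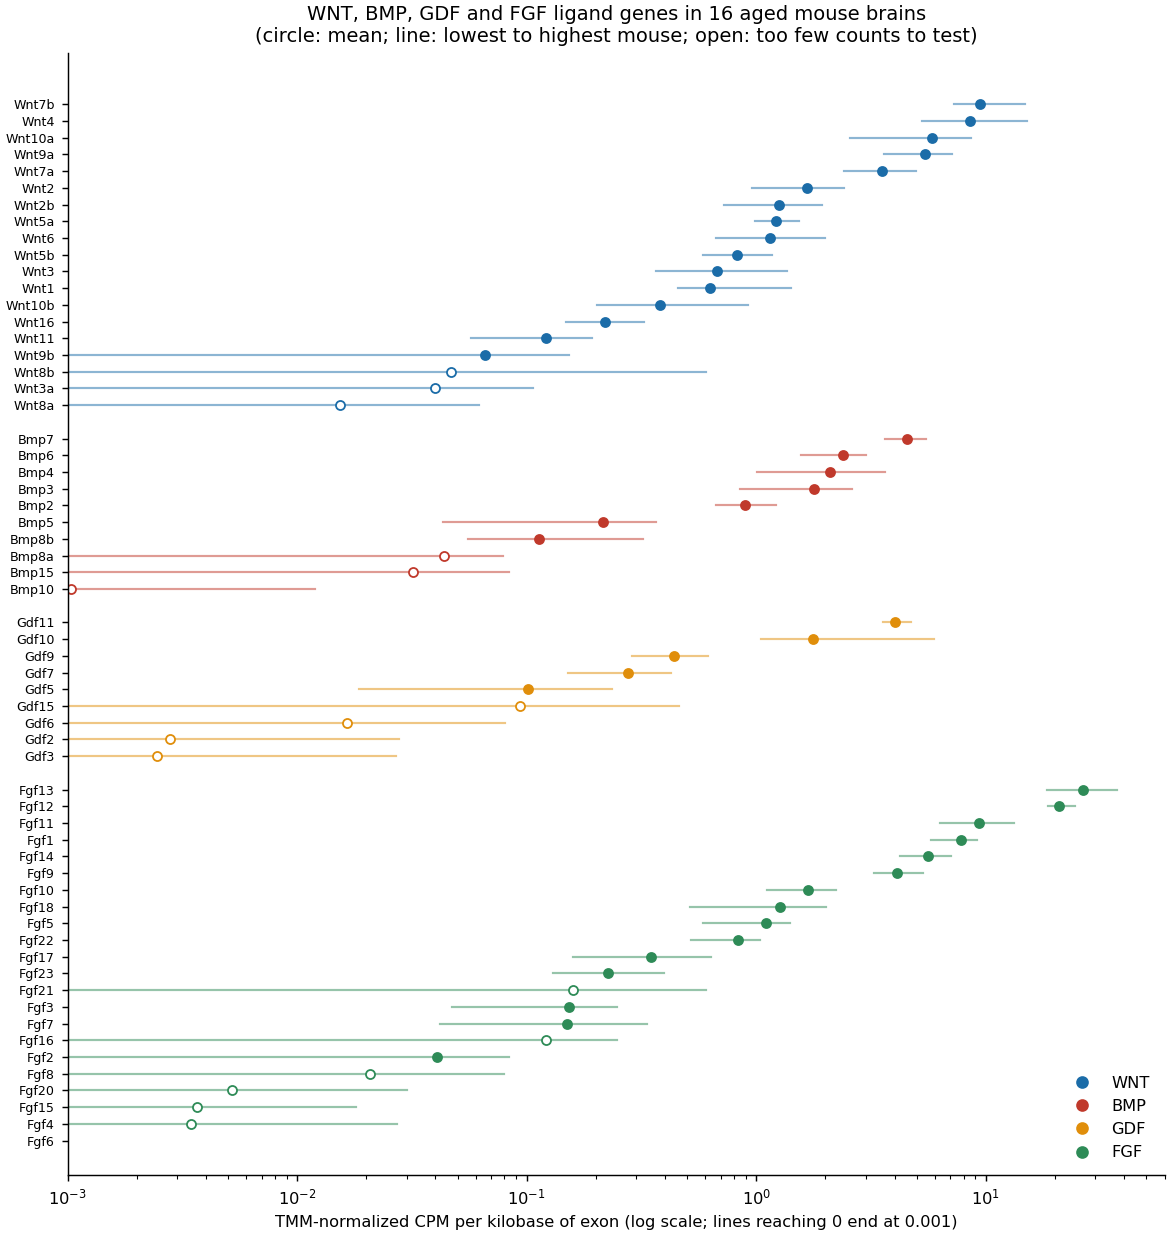
Levels of the 60 ligand genes by family (vertical axis) in TMM-normalised CPM per kilobase of exon on a log scale (horizontal axis). Circles are means over 16 mice, lines run from the lowest to the highest mouse, and open circles are the genes with too few counts to test. Fgf13 (26.4 CPM per kb) and Fgf12 (20.9) stand highest, Wnt7b (9.42) is the highest secreted ligand, and Fgf6 has no point because it had no counts.

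The main question was whether ligand expression differed between adropin and saline mice. Of the 39 secreted ligands tested, 5 (12.8%) had an unadjusted p below 0.05 in edgeR's quasi-likelihood test, against a background of 4.35% (797 of 18333 genes). Bmp3 and Wnt1 were higher with adropin and Wnt11, Gdf10 and Bmp2 lower, where 1.88% of all genes passed in the higher and 2.47% in the lower direction. Wnt11 and Gdf10 also exceeded a 1.5-fold change, as did 1.17% of all genes. No ligand had a Benjamini-Hochberg adjusted p below 0.05 in edgeR (0.894 for each of these 5 and up to 0.996 for the others), nor did any of the 18333 genes (0.0%), whose lowest adjusted p was 0.418. DESeq2 gave 6 ligands with an unadjusted p below 0.05 (the same 5 and Wnt2b; 4.78% of all genes) and limma-voom gave 3 (Wnt11, Bmp3 and Wnt2b; 4.26% of all genes). Neither gave a ligand with an adjusted p below 0.05, and DESeq2 gave 2 such genes in the whole table. The 5 are therefore differences that did not pass correction for the number of genes tested. The count was 2 without mouse 5_4 or 8_3, where 3.68% and 3.27% of all genes had an unadjusted p below 0.05. It was 3 without mouse 1_3, 4_1, 5_5, 6_2, 7_4 or 8_1, where 3.04% to 4.34% of all genes did.

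Across the 39 secreted ligands, the median log2 fold change was 0.04, against -0.01 over all genes tested. 22 ligands had a positive and 17 a negative log2 fold change. In none of the 43 tested members were the groups apart without overlap, and the same count over all genes is not given here. The summed level of all 56 secreted ligands was 314 ± 10.4 CPM with adropin and 308 ± 23.4 with saline (mean ± SD, n = 8 each), and the ranges of 297 to 326 and 278 to 338 overlapped. For WNT the sum was 158 ± 12.9 with adropin and 153 ± 15.6 with saline. BMP genes summed to 52.3 ± 6.13 and 47.9 ± 5.72 CPM in the same order. For GDF the values were 25.7 ± 1.47 and 28.9 ± 8.20 CPM, where saline mouse 8_3 reached 48.6. Secreted FGF genes summed to 77.8 ± 5.33 and 78.1 ± 7.35 CPM.

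**Figure D2:**
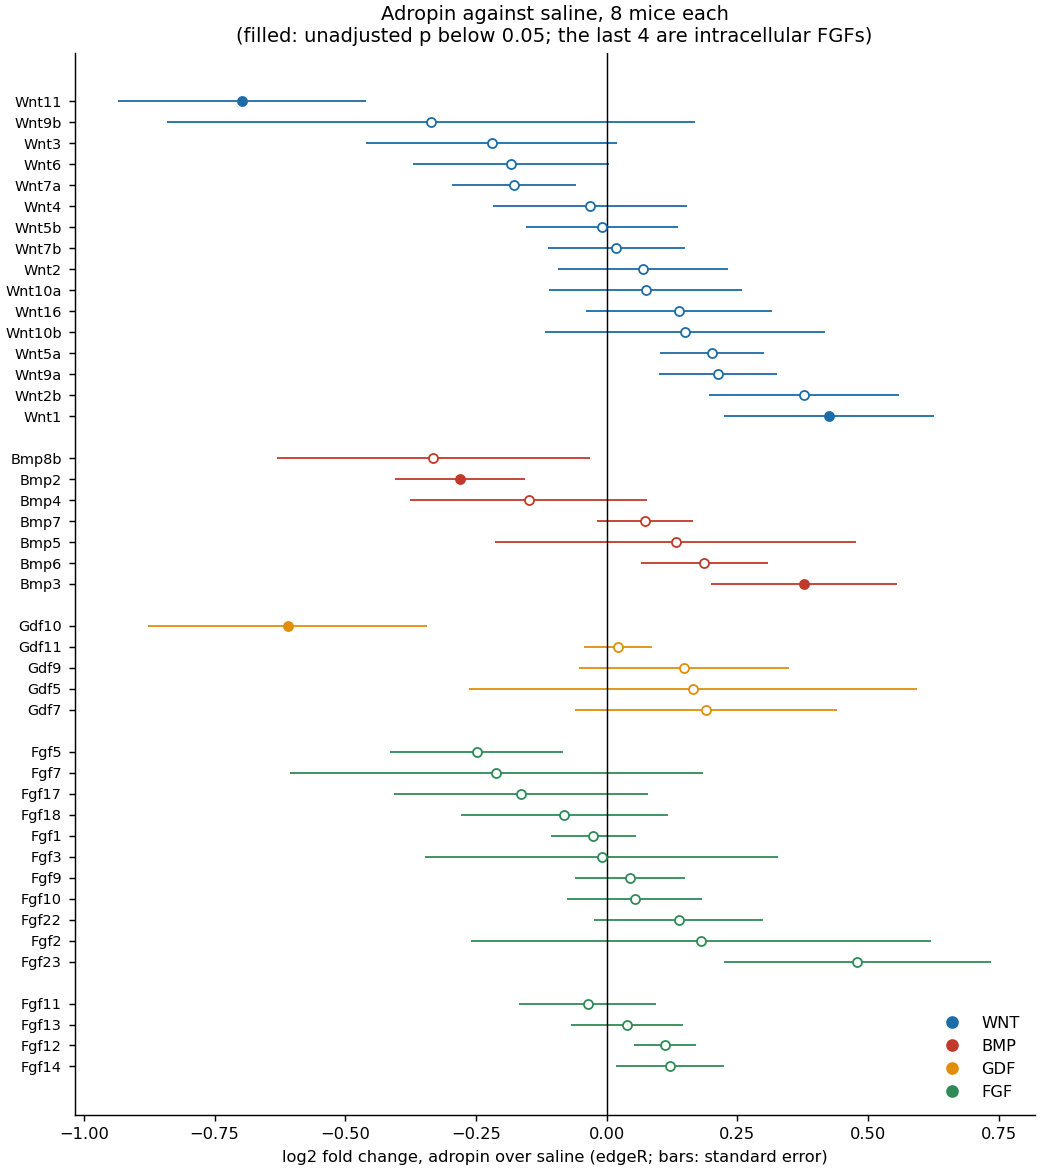
Log2 fold change (adropin over saline, horizontal axis) of the 43 ligand genes tested, with standard errors from edgeR as bars, grouped by family. Filled circles mark an unadjusted p below 0.05: Wnt11 (-0.70), Gdf10 (-0.61) and Bmp2 (-0.28) lie left of 0, and Wnt1 (0.43) and Bmp3 (0.38) right of it.

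Wnt11 (ENSMUSG00000015957, GRCm38 chr7:98835112-98855195, plus strand) encodes a ligand best known for non-canonical signalling in cell movement and organ formation. In saline mice its level had a minimum of 0.388, a median of 0.668 and a maximum of 0.793 CPM. In adropin mice the minimum was 0.236, the median 0.337 and the maximum 0.579 CPM. All 8 adropin mice were below the saline median and 5 of 8 saline mice were above every adropin mouse, although the ranges overlapped. This gave a log2 fold change of -0.70 (SE 0.24; edgeR p = 0.00858, adjusted p = 0.894), which is 1.62-fold lower, and a two-sided exact permutation test gave p = 0.00793. Wnt11 had an unadjusted p below 0.05 with each of the 16 mice left out in turn (highest exact permutation p = 0.0160). Its level is low, and 364 bases of its exons overlap Gm8398 on the opposite strand. Reads of the overlapping genes cannot be told apart where strand is not used in counting, and the sources used here do not state the strand setting. Exons of 11 other tested members also overlap another gene: Wnt5a, Wnt7b, Bmp4, Bmp5, Bmp6, Bmp8b, Gdf5, Fgf2, Fgf10, Fgf14 and Fgf22. The longest stretches are 1878 bases for Bmp5 and 936 for Gdf5.

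Gdf10 (ENSMUSG00000021943, chr14:33923587-33937983, plus strand), also called BMP3b, is expressed in the Bergmann glia of the cerebellum and in some cortical cells. Saline mice ranged from 6.66 to 31.0 CPM with a median of 8.52, and adropin mice from 5.44 to 8.94 CPM with a median of 7.21. The maximum belonged to mouse 8_3, and the next saline mouse stood at 10.2 CPM, so 7 of 8 saline mice lay between 6.66 and 10.2. The fit put the log2 fold change at -0.61 (SE 0.27; edgeR p = 0.0339, adjusted p = 0.894), and the exact permutation test gave p = 0.0800. Without mouse 8_3 it was -0.18 (exact permutation p = 0.155). The edgeR p also rose above 0.05 without mouse 1_3, 2_1, 5_5 or 7_4.

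In the same mouse, all 5 cerebellar markers tested were at their maximum, including Cbln3 of granule cells at 125 CPM against 2.77 in the next saline mouse. Of the cerebellar markers, 5 of 5 had an unadjusted p below 0.05 in the lower direction, and 1 of 5 (En2) without mouse 8_3. For the choroid plexus list the numbers were 9 of 10 with all mice and 2 of 10 without that mouse. Gdf10 and the cerebellar marker sum had r = 0.91 over 16 mice after group means were subtracted (Spearman rho = 0.50, permutation p = 0.0364 and 0.0854, adjusted p = 0.294 and 0.525). Without mouse 8_3, r was 0.19. The part of tissue composition in the Gdf10 difference was not tested beyond these values.

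Bmp2 (ENSMUSG00000027358, chr2:133552159-133562885, plus strand) is a classical bone morphogenetic protein that activates SMAD1, SMAD5 and SMAD9. Saline mice ranged from 2.36 to 4.31 CPM with a mean of 3.49 ± 0.71 (SD) and a median of 3.80. Adropin mice lay between 2.54 and 3.33 CPM with a mean of 2.87 ± 0.28 and a median of 2.84. All 8 adropin mice were below the saline median, while the saline group split, with 5 mice above every adropin mouse and mouse 8_3 below them all. Adropin over saline, the log2 fold change was -0.28 (SE 0.12; edgeR p = 0.0363, adjusted p = 0.894; exact permutation p = 0.0542). Leaving out mouse 8_3 gave -0.35 (exact permutation p = 0.00870), and leaving out any of 11 other mice raised the edgeR p above 0.05.

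Bmp3 (ENSMUSG00000029335, chr5:98854415-98884396, plus strand) encodes an atypical BMP that opposes the osteogenic members. Its level ranged from 6.31 to 18.4 CPM in saline mice (median 10.5) and from 10.3 to 19.2 CPM in adropin mice (median 15.5). Adropin mice were mostly high, with 7 of 8 above the saline median, and 4 saline mice fell below every adropin mouse. In edgeR, the log2 fold change was 0.38 (SE 0.18; edgeR p = 0.0466, adjusted p = 0.894; exact permutation p = 0.0566). With the lowest animal, mouse 8_3, left out it was 0.29 (exact permutation p = 0.114), and the edgeR p was above 0.05 without each of 10 further mice.

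Wnt1 (ENSMUSG00000022997, chr15:98789857-98793837, plus strand), which sets up the midbrain and hindbrain in the embryo, ranged from 1.08 to 1.54 CPM in saline mice (median 1.26). In adropin mice the range was 1.09 to 3.35 CPM with a median of 1.52. The saline mice were tightly grouped, and the adropin group was spread upward by mouse 7_4, with the next mouse at 2.04. This gave a log2 fold change of 0.43 (SE 0.20; edgeR p = 0.0483, adjusted p = 0.894; exact permutation p = 0.0771). Without mouse 7_4 it was 0.22 (exact permutation p = 0.151), and the edgeR p exceeded 0.05 without each of 9 other mice. Mouse 7_4 was also the mouse with 73 counts of Wnt8b.

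**Figure D3:**
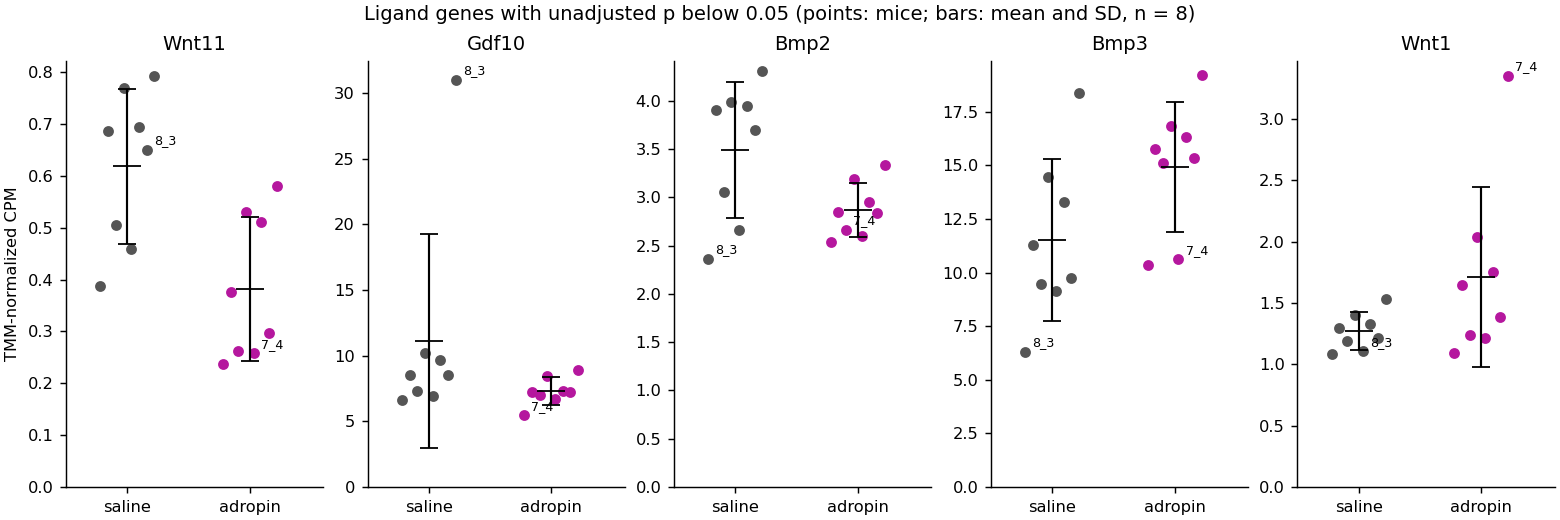
TMM-normalised CPM (vertical axis, from 0) of the 5 ligand genes with an unadjusted p below 0.05, in saline and adropin mice; points are mice and bars are the mean and SD of 8 mice. Mouse 8_3 stands apart for Gdf10 (31.0 CPM, next 10.2) and mouse 7_4 for Wnt1 (3.35, next 2.04), while no Wnt11 value stands apart from its group in this way.

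Promoter sequence was taken from RefSeq (GRCm38.p6) as 250 bases before to 50 after each start site, and 43 of 60 members had an entry. Of the 5 genes above, Wnt11, Gdf10 and Wnt1 had one, and these are printed below so that the sequence next to each start can be compared, with motif matches in capitals. The motifs searched on both strands were the TATA box TATAAA, the GC box GGGCGG, the AP-1 motif TGANTCA, the cyclic AMP response element TGACGTCA and the TCF/LEF motif CTTTGA. The last 3 letters of CTTTGA can overlap the start of TGANTCA. For Wnt11 the entry that shares the annotated gene start is shown.
Wnt11, chr7:98834862-98835161, plus strand: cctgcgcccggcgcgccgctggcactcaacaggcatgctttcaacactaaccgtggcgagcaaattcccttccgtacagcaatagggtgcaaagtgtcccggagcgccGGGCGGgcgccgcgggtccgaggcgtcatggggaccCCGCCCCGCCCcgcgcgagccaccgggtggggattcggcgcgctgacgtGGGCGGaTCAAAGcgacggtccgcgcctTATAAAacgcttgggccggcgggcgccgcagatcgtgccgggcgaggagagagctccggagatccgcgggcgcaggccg
Gdf10, chr14:33923337-33923636, plus strand: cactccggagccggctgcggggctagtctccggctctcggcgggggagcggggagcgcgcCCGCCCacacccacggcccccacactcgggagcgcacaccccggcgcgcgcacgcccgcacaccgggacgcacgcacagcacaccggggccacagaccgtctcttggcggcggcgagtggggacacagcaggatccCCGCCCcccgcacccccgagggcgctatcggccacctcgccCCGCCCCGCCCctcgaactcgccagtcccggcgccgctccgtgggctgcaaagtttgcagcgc
Wnt1, chr15:98789607-98789906, plus strand: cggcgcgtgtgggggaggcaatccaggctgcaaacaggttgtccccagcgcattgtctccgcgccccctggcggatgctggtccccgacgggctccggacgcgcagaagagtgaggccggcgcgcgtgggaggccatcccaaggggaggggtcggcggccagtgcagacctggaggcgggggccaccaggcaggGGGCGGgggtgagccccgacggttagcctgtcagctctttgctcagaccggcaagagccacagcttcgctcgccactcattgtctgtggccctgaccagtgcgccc
All 3 were rich in G and C, at 71.3% for Wnt11, 77.3% for Gdf10 and 70.7% for Wnt1. The median was 52.7% over 32851 promoters and 64% over the 53 member promoters. A second Wnt11 entry, not printed, had 59.3% and no TATA box. Of the printed stretches, only that of Wnt11 held a TATA box, starting 29 bases before the start site, a motif present in 13.6% of all promoters. It also held a TCF/LEF match 50 bases before the start (a motif of 5257 of all 32851 promoters) and 4 GC boxes. Gdf10 held 4 GC boxes and Wnt1 held 1, where 35.7% of all promoters and 35 of the 53 member promoters (66.0%) held at least 1. No AP-1 match or cyclic AMP response element was found in these 3 windows, against 7.81% and 1.79% of all promoters. A match is a description of letters and no measure of binding.

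The most abundant WNT genes showed no difference past the threshold. Wnt7b, which acts on brain vessels and dendrites, ranged from 35.4 to 72.6 CPM in saline mice (median 44.4) and from 37.0 to 62.2 CPM in adropin mice (median 45.7). The fit put the log2 fold change at 0.02 (SE 0.13; exact permutation p = 0.809), with a sign that changed under several alternatives. Wnt4, expressed in meninges and several neuron types, ranged from 22.1 to 63.0 CPM in saline mice (median 33.1) and from 28.1 to 55.5 CPM in adropin mice (median 30.3), with a log2 fold change of -0.03 (SE 0.19; exact permutation p = 0.935). The groups of both genes overlapped almost fully. Wnt10a, a canonical ligand known from tooth and skin, ranged from 6.32 to 21.2 CPM in saline mice (median 13.6) and from 9.83 to 18.5 CPM in adropin mice (median 15.1). Adropin over saline, the log2 fold change was 0.07 (SE 0.19; exact permutation p = 0.602).

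Among the other WNT genes, Wnt2b had a log2 fold change of 0.38 (exact permutation p = 0.0876), an edgeR p just above 0.05 and 7 of 8 adropin mice above the saline median. Its unadjusted p was below 0.05 in DESeq2 and limma-voom, and in edgeR without mouse 2_1, 3_3, 4_3, 5_3 or 7_1. Wnt5a and Wnt9a had log2 fold changes of 0.20 and 0.21 (exact permutation p = 0.0634 and 0.0864). In edgeR, the unadjusted p of Wnt5a was below 0.05 without mouse 2_1, 4_3 or 6_1, and that of Wnt9a without mouse 4_1, 4_3, 5_3 or 7_1. Wnt2, Wnt16 and Wnt10b lay at 0.07, 0.14 and 0.15 on the same scale. The Wnt10b value was 0.51 without saline mouse 2_3, the highest for this gene, and its unadjusted p in edgeR was then below 0.05. Wnt5b at -0.01, Wnt7a at -0.18, Wnt6 at -0.18, Wnt3 at -0.22 and Wnt9b at -0.34 had negative values, none with p below 0.05. Without saline mouse 8_3, Wnt6 was at -0.04 and Wnt3 at -0.03, and without mouse 6_1 Wnt9b was at -0.10. Wnt9b was the most variable secreted ligand, with a biological coefficient of variation of 0.65 (the square root of edgeR's dispersion), against a median of 0.25 over the secreted ligands.

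In the BMP family, Bmp7, a ligand of meninges and choroid plexus in the developing brain, ranged from 14.6 to 20.6 CPM in saline mice (median 17.9) and from 14.8 to 21.9 CPM in adropin mice (median 19.4). In edgeR, the log2 fold change was 0.07 (SE 0.09; exact permutation p = 0.463). Bmp6, a regulator of hepcidin and iron, ranged from 6.12 to 11.6 CPM in saline mice (median 8.39) and from 7.02 to 11.7 CPM in adropin mice (median 10.2), with a log2 fold change of 0.19 (SE 0.12; exact permutation p = 0.165). Adropin mice were above the saline median in 6 of 8 cases, but the groups overlapped, and the edgeR p of Bmp6 was below 0.05 without mouse 2_3 or 7_4. Bmp4, which restrains neurogenesis and favours astrocytes, ranged from 2.27 to 8.19 CPM in saline mice (median 4.95) and from 3.09 to 7.50 CPM in adropin mice (median 4.04), with a log2 fold change of -0.15 (SE 0.23; exact permutation p = 0.695). Bmp5 (0.13) and Bmp8b (-0.33) had wide standard errors of 0.34 and 0.30. Bmp8b was at 0.01 without saline mouse 7_1, and Bmp5 at -0.03 without mouse 8_3. With a mouse left out, Bmp4 ran from -0.28 (without mouse 4_3) to -0.01 (without mouse 5_4).

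Gdf11, a close relative of myostatin that has been studied as a factor of ageing, was the steadiest secreted ligand, with a biological coefficient of variation of 0.10. It ranged from 14.8 to 19.2 CPM in saline mice (median 15.9) and from 14.5 to 18.2 CPM in adropin mice (median 16.3). This gave a log2 fold change of 0.02 (SE 0.06; exact permutation p = 0.712). Gdf9, the oocyte growth factor, was present at 0.582 to 1.25 CPM in saline mice (median 0.720) and 0.678 to 1.21 CPM in adropin mice (median 0.875), with a log2 fold change of 0.15 (SE 0.20; exact permutation p = 0.346). Gdf5, known from joints, and Gdf7, known from the dorsal spinal cord, lay at 0.17 (SE 0.43) and 0.19 (SE 0.25), and Gdf5 was at -0.08 without adropin mouse 7_4.

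None of the 11 secreted FGF genes tested had an unadjusted p below 0.05 in edgeR (DESeq2 and limma-voom likewise gave 0). Fgf23 had an edgeR p below 0.05 when mouse 1_3, 2_4 or 5_5 was left out. Fgf1, the prototype acidic FGF and the highest of them per kb at 7.78, had a log2 fold change of -0.03. Fgf9 and Fgf10 lay at 0.04 and 0.05, and Fgf18 and Fgf17 at -0.08 and -0.16 (Fgf17 at -0.02 without mouse 5_4). Fgf23, the phosphate hormone of bone that needs Klotho as co-receptor, had the highest positive value at 0.48 (SE 0.26; exact permutation p = 0.118), from 0.261 to 0.405 CPM in saline mice and 0.237 to 0.720 in adropin mice. Fgf22, a presynaptic organiser, lay at 0.14 and Fgf2 at 0.18. Fgf3 (-0.01), Fgf7 (-0.21) and Fgf5 (-0.25) completed the family, and Fgf7 was at 0.04 without saline mouse 8_3.

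The 4 intracellular FGFs were expressed above every secreted FGF per kb, except that Fgf14 at 5.60 lay under Fgf1. Fgf13 ranged from 74.0 to 150 CPM in saline mice (median 98.9) and from 95.9 to 126 CPM in adropin mice (median 105), with a log2 fold change of 0.04 (SE 0.11; exact permutation p = 0.614). Fgf12 ranged from 116 to 140 CPM in saline mice (median 123) and from 118 to 151 CPM in adropin mice (median 134), with a log2 fold change of 0.11 (SE 0.06; exact permutation p = 0.0634). Fgf12 was above the saline median in 7 of 8 adropin mice, and its edgeR p was below 0.05 without mouse 4_3 or 7_1. Fgf11 ranged from 19.3 to 40.5 CPM in saline mice (median 27.8) and from 22.1 to 37.8 CPM in adropin mice (median 26.6), with a log2 fold change of -0.04 (SE 0.13; exact permutation p = 0.840). Fgf14 lay at 0.12 (SE 0.10; exact permutation p = 0.297).

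The partners of these ligands were then examined through lists of receptors, antagonists, mediators and target genes, 105 genes in all, of which 98 were tested. An unadjusted p below 0.05 was found for 7 (7.14%; background 4.35%), with 1 higher and 6 lower, and none had an adjusted p below 0.05 in edgeR, DESeq2 or limma-voom. The count was 12 without mouse 4_3, 12 without mouse 7_1 and 13 without mouse 6_1, and the share of all genes in these fits was 9.15%, 6.20% and 5.29%. Sostdc1, Chrdl2 and Kl exceeded a 1.5-fold change. The median log2 fold change over the 98 genes was -0.01, the value of all genes.

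On the WNT side, 0 of 15 receptors, 0 of 2 secretion genes (Wls and Porcn), 0 of 6 R-spondin genes and their receptors and 0 of 9 feedback and target genes had an unadjusted p below 0.05 in edgeR. DESeq2 and limma-voom gave the same counts, except that each passed 1 target gene, the receptor-removing ligase Znrf3 (log2 fold change 0.26 in edgeR). Axin2, the standard readout of canonical signalling, had a log2 fold change of -0.04. Of 10 secreted antagonists tested, 1 was lower, and 8 of 10 had negative values (median -0.13). That gene was Sostdc1, which blocks both WNT and BMP ligands and is also on the choroid plexus list. It ranged from 0.637 to 11.5 CPM in saline mice (median 1.31) and from 0.458 to 1.85 CPM in adropin mice (median 0.988). The highest value came from mouse 8_3, ahead of 2.43 in the next, and the groups otherwise overlapped. The log2 fold change of Sostdc1 was -1.31 (SE 0.52; edgeR p = 0.0217, exact permutation p = 0.149), and -0.33 (exact permutation p = 0.298) without that mouse. DESeq2 and limma-voom did not pass Sostdc1 and passed Sfrp5, a soluble Frizzled-like antagonist, instead (log2 fold change -0.73 in edgeR).

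On the BMP and GDF side, Acvr1c, the type I receptor ALK7, was the 1 gene of 13 receptors and co-receptors that was higher. It ranged from 11.6 to 19.3 CPM in saline mice (median 15.2) and from 13.6 to 27.1 CPM in adropin mice (median 18.6), and the log2 fold change was 0.31 (SE 0.12; edgeR p = 0.0244, exact permutation p = 0.0438). Leaving out each mouse kept the exact permutation p of Acvr1c below 0.05 in 7 of 16 cases (highest 0.0895, without mouse 2_3). Of 13 secreted BMP antagonists tested, 2 were lower in edgeR, Sostdc1 and Chrdl2. DESeq2 passed Chrdl2 alone, and limma-voom passed Chrdl2 and Chrdl1, whose log2 fold change was 0.19 in edgeR. Chrdl2, a chordin-like binder of BMPs, ranged from 0.195 to 0.363 CPM in saline mice (median 0.271) and from 0.0593 to 0.378 in adropin mice (median 0.106). Most adropin mice had less than every saline mouse, but the highest adropin mouse exceeded them all. The log2 fold change of Chrdl2 was -0.86 (SE 0.34; p = 0.0207, exact permutation p = 0.00979), and -0.92 (exact permutation p = 0.0103) without mouse 8_3. Chrdl2 had 3 to 16 counts per mouse and reached 10 counts in 6 saline and 2 adropin mice, so it passed the count filter mainly through the group where it is higher, and its tests carry little weight.

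Downstream, 0 of 4 BMP SMAD genes had an unadjusted p below 0.05 in edgeR, DESeq2 or limma-voom, and 1 of 7 BMP target genes did. All 7 targets, the Id genes, Bambi, Smad6 and Smad7, had negative log2 fold changes between -0.20 and 0.00 (median -0.13). Smad7, an inhibitory SMAD induced by the pathway, ranged from 24.1 to 31.3 CPM in saline mice (median 26.9) and from 21.5 to 27.1 CPM in adropin mice (median 24.6). The fit put the log2 fold change at -0.15 (SE 0.07; edgeR p = 0.0397, exact permutation p = 0.0416), and -0.12 (exact permutation p = 0.0821) without mouse 8_3, which had the highest value. That p was below 0.05 in 8 of 16 cases with each mouse left out (highest 0.0828, without mouse 4_3).

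On the FGF side, 2 of 9 receptors and co-receptors and 1 of 11 feedback and target genes were lower. Kl, the Klotho co-receptor of endocrine FGFs, ranged from 3.85 to 23.5 CPM in saline mice (median 5.74) and from 1.86 to 5.88 CPM in adropin mice (median 3.64). The highest saline value came from mouse 8_3, the next was 7.66, and the groups overlapped. The log2 fold change of Kl was -1.11 (SE 0.34; edgeR p = 0.00412, exact permutation p = 0.00808), and -0.61 (exact permutation p = 0.0171) without mouse 8_3. Kl is also on the choroid plexus list.

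Fgfr1, the main FGF receptor of neurons, ranged from 60.5 to 87.6 CPM in saline mice (median 72.4) and from 58.1 to 74.2 CPM in adropin mice (median 63.5). Adropin over saline, the log2 fold change was -0.20 (SE 0.08; edgeR p = 0.0165, exact permutation p = 0.0281). Dusp6, a phosphatase induced by FGF and ERK signalling that feeds back on ERK, stood at 61.6 ± 7.91 CPM in saline mice (median 63.8) and 50.4 ± 10.8 CPM in adropin mice (median 50.1; mean ± SD, n = 8 each). In edgeR, the log2 fold change was -0.29 (SE 0.12; p = 0.0220, exact permutation p = 0.0314). Both genes overlapped between groups, and without mouse 8_3 the exact permutation p was 0.0398 and 0.0334. Over the 16 possible omissions of 1 mouse, this p was below 0.05 in 11 of 16 cases for Fgfr1 (highest 0.0552, without mouse 6_1) and in 9 of 16 for Dusp6 (highest 0.0625, without mouse 4_3). Of the other FGF targets, Spry4 and Spry2 lay at -0.19 and -0.07, and Etv5 at 0.08.

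Ligands were also compared with each other across the 16 mice, after group means were subtracted from log2 CPM. Of 903 pairs, 6 had a permutation p for Pearson's r that passed at an adjusted level of 0.05, and 2 of them passed by Spearman's rho as well. The strongest was a negative relation of Wnt10a with Fgf11 (r = -0.93, rho = -0.91, adjusted permutation p = 0.00903 and 0.0181), which stayed at r = -0.90 without mice 6_1 and 8_3. Wnt10a and Wnt7b had r = -0.89 (rho = -0.76, adjusted permutation p = 0.0163 and 0.110), and Fgf11 and Wnt7b r = 0.86 (rho = 0.82, 0.0163 and 0.0933). Across mice, Wnt7b and Fgf11 were high where Wnt10a was low. Without mice 6_1 and 8_3, r was -0.75 and 0.80 for these pairs.

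The other 3 pairs were Bmp3 with Fgf13 (r = 0.87, rho = 0.79, adjusted permutation p = 0.0256 and 0.110), Fgf12 with Fgf14 (r = 0.86, rho = 0.81, 0.0163 and 0.110) and Bmp4 with Wnt9a (r = -0.86, rho = -0.89, 0.0163 and 0.0316). Without the 2 mice farthest from the median on the first gene of each pair, r was 0.71, 0.74 and -0.81. All values of a mouse share its library and its piece of tissue. Ligand genes that lie next to each other in the genome were looked at afterwards, and neither Wnt6 with Wnt10a (6.19 kb apart, r = 0.24) nor Wnt1 with Wnt10b (11.7 kb, r = -0.30) nor Wnt3 with Wnt9b (24.3 kb, r = -0.46) passed.

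Mouse-to-mouse values also ran with markers of place. Among 129 relations of the 43 tested members with the choroid plexus, meningeal and cerebellar sums, 1 passed by both r and rho. This was Bmp4 with the 9 meningeal fibroblast markers (r = 0.88, rho = 0.84, adjusted permutation p = 0.0116 and 0.0374; r = 0.84 without mice 5_3 and 5_4). The meningeal sum ranged from 117 to 369 CPM in saline mice and from 152 to 299 CPM in adropin mice, and 0 of its 9 markers had an unadjusted p below 0.05 between groups in edgeR, DESeq2 or limma-voom. Wnt4 passed with the same markers by rho alone (rho = 0.78, adjusted permutation p = 0.0374; r = 0.65).

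With cortex, thalamus, hippocampus and striatum markers, a choice made after the data were seen, 5 of 172 relations passed by r. Wnt7b ran against the cortex sum (r = -0.88, rho = -0.84, adjusted permutation p = 0.00172 and 0.0241), and r was -0.73 without mice 6_1 and 3_3. Wnt10a ran with it (r = 0.82, rho = 0.71, 0.0103 and 0.134) and Fgf11 against it (r = -0.78, rho = -0.74, 0.0234 and 0.0967), with r of 0.63 and -0.55 without the same mice. Fgf11 rose with the hippocampus sum (r = 0.79, rho = 0.79, 0.0234 and 0.0533) and Gdf10 with the thalamus sum (r = 0.79, rho = 0.67, 0.0234 and 0.211). Without mice 8_3 and 4_1 the former was 0.64, and without mice 8_3 and 2_3 the latter was 0.66. Fgf5 passed with the cortex sum by rho alone (rho = 0.82, adjusted permutation p = 0.0241; r = 0.68).

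The cortex sum ranged from 463 to 880 CPM in adropin mice (median 698) and from 391 to 671 CPM in saline mice (median 601). Of its 5 markers, 3 were higher with adropin at an unadjusted p below 0.05 (Cux2, Rorb and Tbr1), against 1 (Cux2) without mouse 8_3 and 1 in limma-voom. The exact permutation p of these genes was 0.0620, 0.0906 and 0.0855. The hippocampus sum had a median of 61.1 CPM with adropin and 91.1 with saline, where 1 of 6 markers was lower (2 without mouse 8_3), and the thalamus sum 66.9 and 83.2, where 2 of 6 were lower (Calb2 and Prkcd; Prkcd and Tcf7l2 without that mouse). The part of these regional differences in the ligand values was not tested. For Wnt11, Bmp2, Bmp3 and Wnt1, r with these sums within groups lay between -0.49 and 0.61 and none passed.

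**Figure D4:**
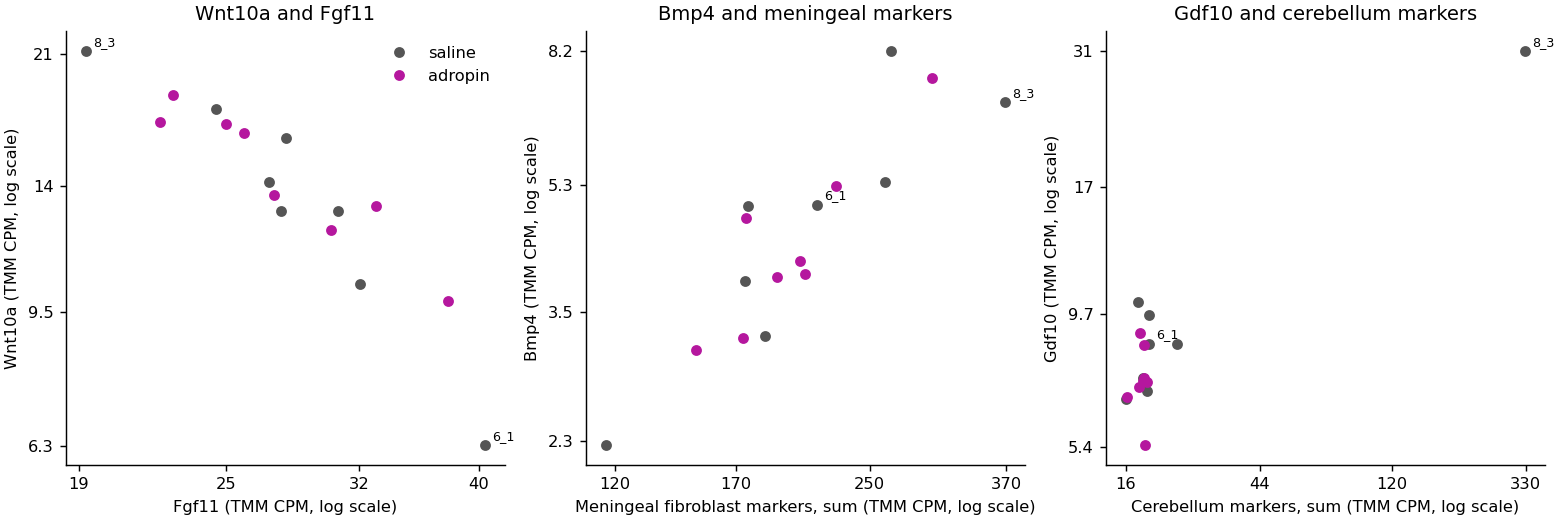
Wnt10a against Fgf11 (left), Bmp4 against the summed meningeal fibroblast markers (middle) and Gdf10 against the summed cerebellar markers (right), all in TMM-normalised CPM on log axes; each point is 1 mouse of the saline or adropin group. Wnt10a falls as Fgf11 rises (r = -0.93) and Bmp4 rises with the meningeal sum (r = 0.88), while the relation of Gdf10 rests on mouse 8_3 (r = 0.91, and 0.19 without it).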

How the data were processed

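RNA-seq of 8 adropin and 8 saline brains was analysed from the gene counts. Per the labels and methods, the authors sequenced poly-A selected RNA as paired ends, ran STAR against the mouse primary assembly of Ensembl release 76 (GRCm38), and deposited gene counts made with featureCounts from reads with 1 unambiguous place. They also deposited CPM, the counts scaled to library totals. The strand setting is not given in the sources used here. The counts were used, and 276 repeated entries of 40757 were dropped.

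edgeR 4.0.16 under R 4.3.3 gave the TMM factors from the whole table. Genes with at least 10 counts in 7 or more mice were kept and 355 ribosomal RNA genes left out, and the 18333 remaining were compared by glmQLFTest with Benjamini-Hochberg adjustment. Single genes were also tested by an exact permutation test (two-sided, 12870 ways of dividing the mice) on log2 CPM with a prior count of 2. Correlations used 100000 permutations within groups. Fold changes are adropin over saline. The members, gene lists and tests were chosen with earlier results of these data known. The labels do not say whether the mice share cages or batches. Exon lengths, overlaps and coordinates came from GENCODE M21 on GRCm38.

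All members are accounted for by symbol. Full statistics are given for members with an unadjusted p below 0.05, for Gdf10 and for the 3 highest of each family per kb, the intracellular FGFs included, and pathway genes are named where p was below 0.05. Genes given with a fold change alone for background were picked after their values were seen.

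The alternatives were limma-voom and limma-trend on log2(CPM + 1) (limma 3.58.1), DESeq2 1.42.0, more than 1 CPM in 7 mice, no filter, DESeq2 size factors, library size only, either label number as a block, and leaving out each mouse. Exact permutation tests with a mouse left out were added after the data were seen. When 200 of 18333 genes were changed in simulated counts, 151 were recovered and 9 unchanged genes called.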

Additional observations from a re-analysis of the deposited data

Results flagged for a closer look

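Each group of 8 mice was checked for a highest or lowest value that lay apart from its neighbour by Dixon's 95% criterion, the gap divided by the group's range. Of 92 groups checked for ligands and marker sums, 11 had such a mouse, and the 11 came from 6 mice. Chance gives about 1 in 20 (4.6) for independent groups of normally distributed values. The values checked were CPM without logs, and all groups came from the same 16 mice, so 4.6 is a rough guide only.

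Saline mouse 8_3 gave 4 of them, with 31.0 CPM for Gdf10 (next 10.2), 4.38 for Wnt6 (next 3.01), 2503 for the choroid plexus sum (next 333) and 328 for the cerebellum sum (next 23.6). Saline mouse 6_1 gave 3, with 72.6 CPM for Wnt7b (next 48.3), 11.9 for Wnt5a (next 9.11) and 19.2 for Gdf11 (next 16.6). Bmp8b reached 1.24 CPM in saline mouse 7_1 (next 0.457), and Wnt10b reached 3.12 in saline mouse 2_3 (next 1.19). Wnt1 stood at 3.35 CPM in adropin mouse 7_4 (next 2.04). The cerebellum sum of adropin mouse 2_1 was low, at 16.1 CPM against 17.7 in the next mouse.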

How the results depend on the processing

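Of the 5 ligands, only Wnt11 had an unadjusted p below 0.05 under every alternative that tested it (8 of 8, and all 16 mice left out). It was not tested above 1 CPM. The number of secreted ligands with p below 0.05 (5) was 3 with limma-voom, limma-trend or library size only, where 4.26%, 3.95% and 4.34% of all genes passed. It was 9 of 55 with no filter (the same 5 with Wnt2b, Wnt8b, Gdf15 and Bmp10; 6.30% of all genes). Leaving out each mouse gave 2 to 7, and the share of all genes ran from 3.04% to 9.15%, the latter without mouse 4_3, which also gave the 7. The number also past 1.5-fold (2) was 1 with limma-voom, 0 with limma-trend, 1 above 1 CPM and 5 with no filter, and 1 to 2 with mice left out (1 without 2_1, 5_5, 7_4 or 8_3). In the main fit 1.17% of all genes passed both cuts, and the shares in these other fits are not given here. Pathway genes with p below 0.05 (7) numbered 5 to 13 with mice left out.

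Mice of opposite groups with the same label number did not deviate together. For the first number, r was -0.14 to 0.10 over 5 pairs (median 0.02, against -0.02 for pairs with other numbers). For the second number, r was -0.36 to 0.21 over 17 pairs (median -0.05, against 0.01). Mice of the same group that share a number were not compared, so shared cages or batches were not tested. With the first number as a replicate block, 2 ligands had p below 0.05, 1 was past 1.5-fold and 3 pathway genes had p below 0.05, as did 2.37% of all genes. Adropin and saline mice share a first number only among mice 2_1, 2_3, 2_4, 5_3, 5_4, 5_5, 7_1 and 7_4. The group difference estimated with that block rests on these mice alone. With the second number as the block, 3 ligands had p below 0.05 (Wnt11, Gdf10 and Fgf23; 3.23% of all genes). Mice 5_5 and 6_2 share their second number with no other mouse and add nothing to that group difference.

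Some log2 fold changes without a call changed sign. Gdf11 was -0.000235 with limma-trend, -0.00293 with library size only and -0.00688 with the second block. Wnt7b was -0.00110 with library size only, -0.0411 with the first block and -0.000321 with the second. Bmp6, at 0.19 without a block, was -0.0160 and Fgf13 -0.0362 with the first block. With mice left out, values ran from -0.104 to 0.0510 for Fgf11, -0.147 to 0.129 for Wnt4, -0.0478 to 0.145 for Wnt7b, -0.0362 to 0.185 for Wnt10a and -0.0205 to 0.129 for Fgf13. Of all 43 members tested, 16 changed sign in at least 1 fit with a mouse left out, and 7 beyond the 5 had p below 0.05 in at least 1. The same counts over all genes are not given here, and 16 fits give any gene more chances to pass than 1 fit. The cause of these changes was not tested. Depth limits low members most, since 10 counts equal 0.142 to 0.285 CPM.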
